A study of Ovis aries with 49 samples.

Results

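Chromatin modifiers and remodellers were followed in 5 fat depots of young lambs. They were taken as the probe sets whose gene symbol begins with KDM, KMT, HDAC, SIRT, SETD, SMARC, DNMT, BRD, KAT or ARID, with CHD or TET and a digit, or is EP300 or CREBBP, with KDM5D left out. This gave 95 probe sets of 10273, each for a different gene. By prefix they were 19 of the SMARC and ARID genes, 17 of KMT and SETD, 14 of HDAC and SIRT, 13 of KDM, 10 of CHD, 8 of BRD, 7 acetyltransferases (KAT, EP300 and CREBBP) and 3 of DNMT and TET (DNMT3A, TET2 and TET3). Another 4 matched by their letters only: KATNA1, KATNAL2 and KATNBL1 name katanins, which act on microtubules, and BRD7P3 is a pseudogene. None of these 4 was called in any comparison.

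Epicardial, omental, perirenal, sternal and subcutaneous fat of sheep (Ovis aries) were sampled at 7 or 28 days of age, and total RNA was hybridised to Human Genome U133 Plus 2 arrays. Each of the 10 groups held 5 arrays, except subcutaneous fat at 7 days with 4, which made 49 in all. According to the study's methods the depots at either age came from the same animals, and the younger and older lambs were sex-matched twins. The lambs were born to Bluefaced Leicester cross Swaledale ewes and reared by them. In the study the mothers of some lambs were fed canola oil. The titles of all 49 arrays carry the same letter C, which the labels do not define, so diet is not assigned to samples here. According to the same methods more tissue went into each extraction at 28 days than at 7 days, so the amount of tissue and age cannot be told apart. Replicates are named here by letters (A to G for the younger lambs, H to O for the older ones) that the labels do not tie to animals, and the spread behind each p-value may therefore be partly technical.

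DNA in the nucleus is wound around histones, and how tightly it is packed bears on which genes are read. Enzymes of the KMT and SETD groups put methyl groups on histone lysines and those of the KDM group take them off. The KAT proteins, EP300 and CREBBP add acetyl groups, HDAC and sirtuin enzymes remove them, and bromodomain proteins bind them. SMARC and ARID proteins are parts of SWI/SNF and related machines that slide or evict nucleosomes with energy from ATP, CHD proteins are remodelling ATPases of another kind, and DNMT and TET enzymes add or oxidise methyl groups on DNA. In fat, several of them, among them KDM1A, KDM3A, KDM6B, KMT2C, KMT2D, HDAC3, EP300 and SIRT1, are known from work on how adipocytes, brown ones in particular, form and keep their genes active.

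Values are deposited log2 signals, on which a difference of 1 is a factor of 2. The members' values ran from 2.49 to 9.65, and 59.0% of them were below 4, against 82.7% of the values of all probe sets. Of the 95 members 40 averaged at least 4 over all arrays, against 1752 of 10273 probe sets, and the rest lay close to the low end, where a poor match between sheep RNA and the human probes cannot be told apart from low expression. For 60 of the 95 at least 10 of the 49 arrays carried 1 and the same value to 2 decimals. SIRT1, a deacetylase that depends on NAD, stood at 2.49 on 33 arrays, KDM3A at 3.93 on 21 and HDAC5 at 4.94 on 17, whereas KMT2D shared a value on no more than 3 arrays, SMARCA2 on 4 and SETD5 on 5. In bulk tissue, fewer cells of a type and less RNA per cell cannot be told apart either. The fits take 1 spread per probe set over the groups, so for a gene such as SIRT1, SETD4, BRD1 or KAT2B, flat in most groups, the error is too small for the group that varied.

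Taken over the 40 members with a mean of at least 4, the array means were higher at 28 than at 7 days in each depot. At 7 days the group means were 5.61 in epicardial, 5.50 in perirenal, 5.39 in omental, 5.33 in subcutaneous and 5.31 in sternal fat, and the 24 arrays spanned 5.22 to 5.71. At 28 days the epicardial, perirenal, omental and subcutaneous groups averaged 6.04, 5.99, 5.87 and 5.84, on arrays between 5.74 and 6.11. Sternal fat averaged 5.46 at 28 days, and its 5 arrays, 5.32 to 5.53, lay below every other array of that age. All 1752 probe sets that averaged at least 4 moved less with age, from 6.19 to 6.29 in epicardial, from 6.01 to 6.31 in omental, from 6.14 to 6.27 in perirenal and from 6.08 to 6.27 in subcutaneous fat. In sternal fat they went from 5.98 to 5.92, so at 28 days the sternal arrays were also dimmer over all of these genes.

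**Figure D1:**
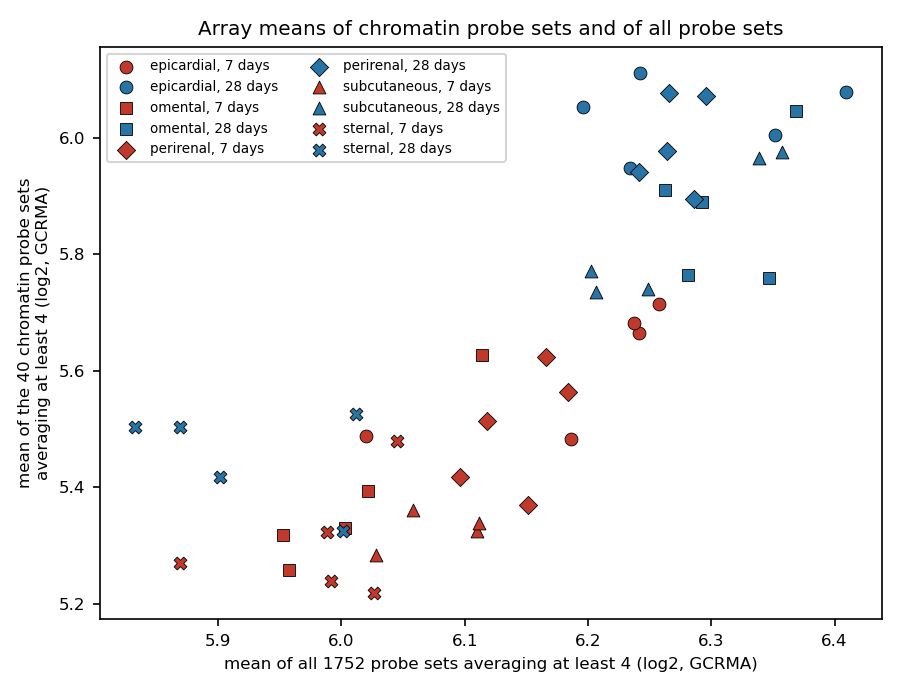
Mean log2 signal of each array over the 40 chromatin probe sets averaging at least 4 (y axis) and over all 1752 such probe sets (x axis), 1 point per array, with depot as the symbol and age as the colour. On the y axis, at 28 days the 5 sternal arrays (5.32 to 5.53) lie below the other 20 (5.74 to 6.11).

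**Figure D2:**
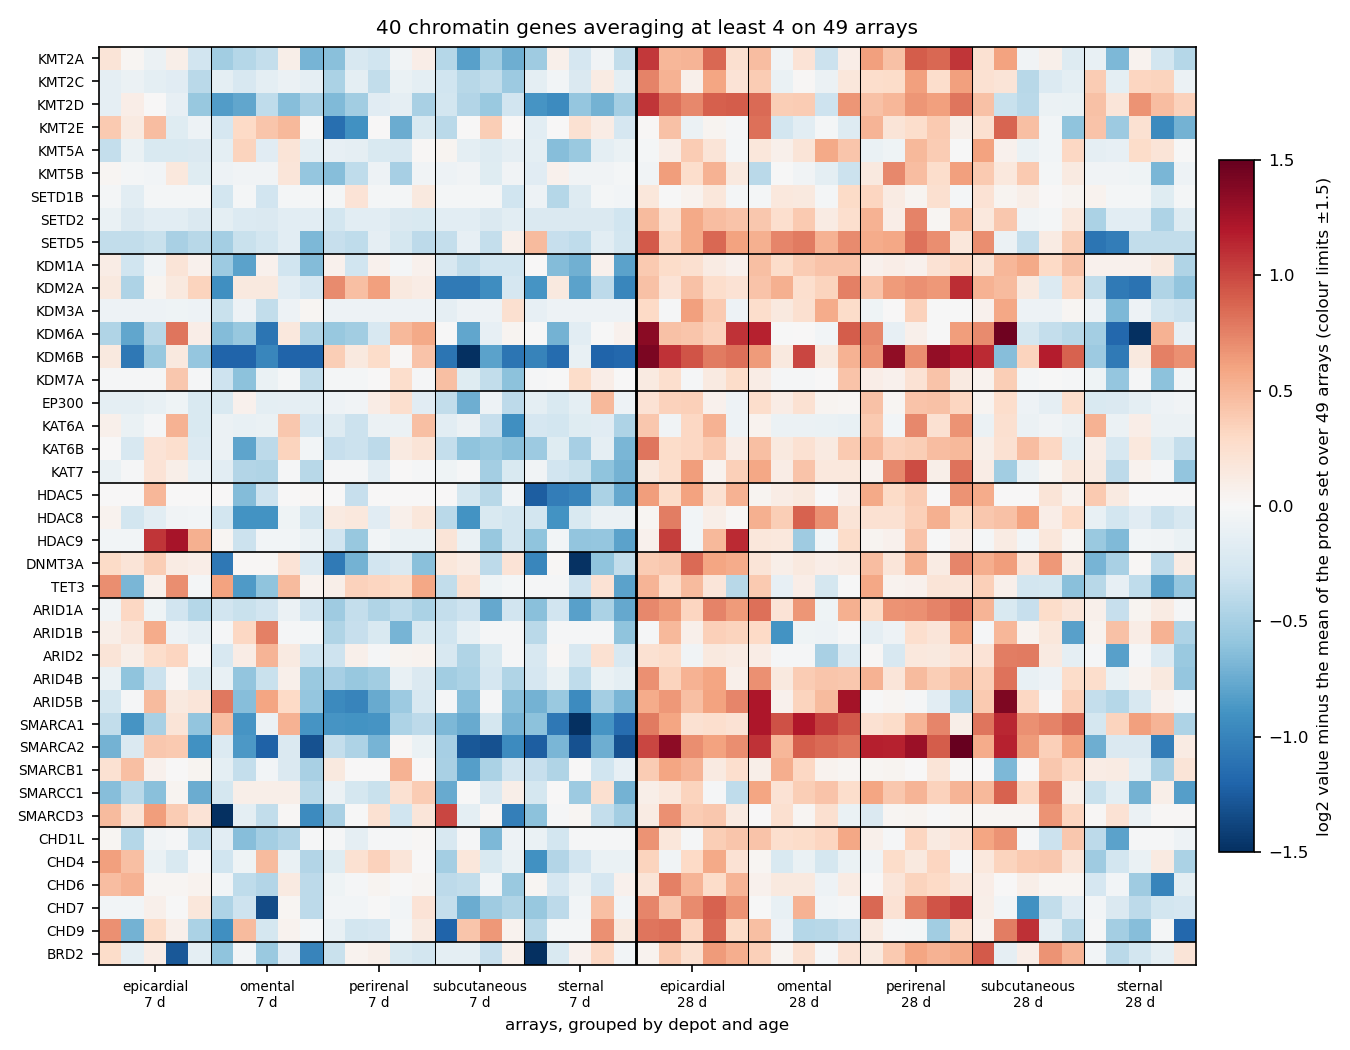
Values of the 40 members averaging at least 4 (rows, by family) on each of the 49 arrays (columns, by age and depot), as the log2 difference from the gene's mean over the arrays, with colours limited at 1.5 either way. Most rows are higher in the columns of 28 days, less so in the 5 sternal columns of that age.

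From 7 to 28 days, 30 of the 95 members rose in omental, 23 in subcutaneous, 21 in epicardial and 20 in perirenal fat, and 1, SIRT1 in subcutaneous fat, fell in these 4 depots. Sternal fat differed in that 6 rose and 1, SETD5, fell. Of all probe sets, the share called higher was 13.5% in omental, 7.68% in subcutaneous, 6.23% in perirenal, 4.21% in epicardial and 2.47% in sternal fat, where 3.89% were called lower. Calls of all probe sets were mostly higher too in the first 4 depots. They were higher for 1391 of 1497 called in omental, 789 of 950 in subcutaneous, 640 of 957 in perirenal and 433 of 600 in epicardial fat. Bright genes are called more often, so the members with a mean of at least 4 were also set against all such probe sets. Higher at 28 days were 20 of these 40 members in omental (all probe sets 29.8%), 17 in subcutaneous (20.8%), 16 in perirenal (19.9%) and 12 in epicardial fat (12.4%). Including those not called, 36 of the 40 had a positive difference in epicardial, 33 in omental, 38 in perirenal, 39 in subcutaneous and 23 in sternal fat. Their median difference was 0.34 in epicardial (all such probe sets 0.10), 0.46 in omental (0.26), 0.47 in perirenal (0.11), 0.40 in subcutaneous (0.19) and 0.14 in sternal fat (-0.08).

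These counts depended in part on how arrays were scaled to each other. When the arrays were quantile-normalized, 10 members were called higher and 2 lower with age in omental fat, 13 higher in epicardial, 16 in perirenal, 9 higher and 1 lower in subcutaneous, and 9 higher and 1 lower in sternal fat. Of all 10273 probe sets, those then called in either direction numbered 768, 508, 822, 493 and 751, in the same order of depots. Leaving out each array in turn gave 25 to 33 calls in omental, 14 to 23 in epicardial, 18 to 21 in perirenal, 19 to 25 in subcutaneous and 5 to 8 in sternal fat. Some arrays carried muscle RNA. CKM, the creatine kinase of muscle, read 8.06 to 11.6 on epicardial arrays at 7 days and 2.76 to 10.5 at 28 days. At 7 days it read 12.9, 11.7 and 6.35 on subcutaneous replicates A, G and E and 8.29 on sternal replicate D. At 28 days it read 12.7, 11.3 and 4.51 on sternal replicates J, O and N and 7.11 and 4.11 on subcutaneous replicates J and M. The fit below left out no epicardial, omental or perirenal array, so the part of muscle in the epicardial changes was not tested. The mean of 17 skeletal muscle genes ran from 2.74 to 7.58 over subcutaneous arrays at 7 days, and 9 of the 17 were lower at 28 days there. Without the sternal and subcutaneous arrays on which CKM exceeded 4, which leaves replicate F as the lone subcutaneous array at 7 days, assumed to vary like the other groups, 9 members rose and 2 fell with age in subcutaneous fat, and 31 were called in omental, 22 in perirenal, 20 in epicardial and 5 in sternal fat.

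**Figure D3:**
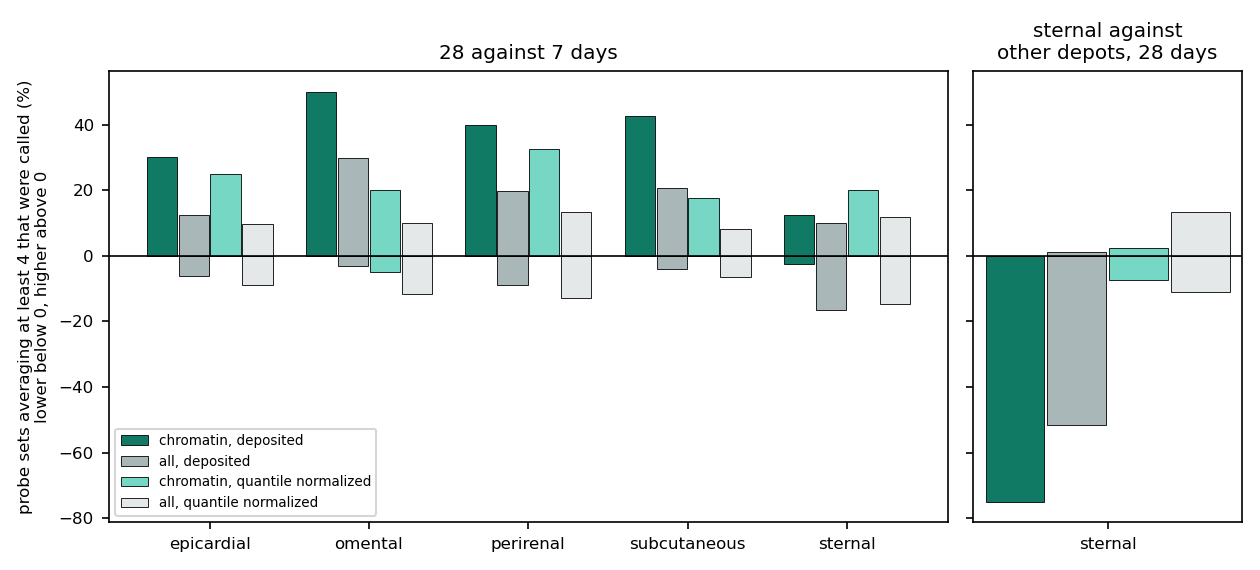
Percent of probe sets, among those averaging at least 4, that were called higher (above 0) or lower (below 0), with age in each depot and in sternal fat against the other depots at 28 days, for the chromatin members and for all probe sets, each with deposited and with quantile-normalized values. In the sternal comparison at 28 days 30 of 40 members are called lower with deposited and 3 with quantile-normalized values.

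Over the 5 depots, 47 members were called higher with age in none, 19 in 1, 15 in 2, 7 in 3, 5 in 4 and 2 in all 5. The 2 called in all 5 were ARID1A, the DNA-binding subunit of one form of SWI/SNF, and SMARCA1, the ATPase also known as SNF2L. Those called in 4 were ARID4B, KDM6B, KMT2D, SETD2 and SMARCA2. The count in 4 or 5 depots was thus 7 of 95 members, beside 0.915% of all probe sets. All 7 averaged at least 4, and of all 1752 such probe sets 4.62% were called in 4 or 5 depots. Those called in 3 were CHD1L, CHD7, HDAC6, KAT6B, KMT2A, SETD5 and SMARCC2. Of all 10273 probe sets, 7956 were called higher in none, 1535 in 1, 492 in 2, 196 in 3, 70 in 4 and 24 in all 5. Among the 40 members averaging at least 4 the counts were 10, 11, 7, 5, 5 and 2, in that order. Among all 1752 such probe sets they were 888, 424, 221, 138, 58 and 23. The age comparisons of the 5 depots do not share arrays, but their animals overlap.

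Of the 17 KMT and SETD genes, which write methyl marks, 7 rose with age in epicardial, 7 in perirenal, 6 in omental, 3 in subcutaneous and 2 in sternal fat, where 1 fell. In the same order 4.21%, 6.23%, 13.5%, 7.68% and 2.47% of all probe sets rose, and 3.89% fell in sternal fat. KMT2D (probe set 227527_at), an enzyme that marks enhancers with H3K4 methylation and is needed for adipogenesis, read 8.20, 8.44, 8.35, 8.22 and 7.77 in epicardial fat at 7 days and 9.41, 9.17, 9.06, 9.24 and 9.25 at 28 days. In sternal fat it read 7.45, 7.40, 7.75, 7.64 and 7.83, and then 8.78, 8.52, 9.01, 8.80 and 8.69. In both depots every array at 28 days lay above every array at 7 days. The differences were 1.15 ± 0.15 in sternal (SE; adjusted p = 5.3e-07), 1.03 ± 0.15 in epicardial (adjusted p = 1.3e-05), 1.02 ± 0.15 in omental (adjusted p = 4.9e-06) and 1.00 ± 0.15 in perirenal fat (adjusted p = 8.2e-06), all from limma with Benjamini-Hochberg adjustment over all probe sets, as are the others below. Those 4 calls held in every fit without 1 array and after quantile normalization. They also held without the sternal and subcutaneous arrays high in CKM. That fit kept all epicardial, omental and perirenal arrays, so for these depots it changed only the shared spread. Subcutaneous fat stood apart, at 7.78 to 8.06 at 7 days and 8.78, 8.0, 7.93, 8.25 and 8.24 at 28 days, and was not called.

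Other members of the KMT group moved in fewer depots. KMT2A, the MLL protein of leukaemias, read 6.85, 7.23, 7.17, 7.41 and 7.57 in perirenal fat at 7 days and 8.08, 7.91, 8.38, 8.33 and 8.54 at 28 days, with no overlap and a difference of 1.00 ± 0.17 (adjusted p = 3.5e-05). It rose by 0.76 ± 0.18 in subcutaneous (adjusted p = 0.0041) and by 0.65 in epicardial fat (adjusted p = 0.012), the latter call lost without epicardial replicate I. KMT2C, the close relative of KMT2D, rose by 0.66 ± 0.12 in perirenal and 0.62 ± 0.12 in epicardial fat (adjusted p = 0.00015 and 0.00072). KMT2E read 5.29, 5.51, 6.42, 5.67 and 6.19 in perirenal fat at 7 days and 6.92, 6.61, 6.68, 6.81 and 6.51 at 28 days, a rise of 0.89 ± 0.24 (adjusted p = 0.0097). KMT5B, which methylates H4K20, rose by 0.77 ± 0.13 in perirenal fat (adjusted p = 5.3e-05). KMT2B rose by 0.62 in both epicardial and omental fat, and the omental call was lost after quantile normalization.

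SETD5 and SETD2 rose in most depots and not in sternal fat. SETD5 (222575_at), a SET-domain protein found with the HDAC3 corepressor, read 5.49, 5.49, 5.53, 5.38 and 5.44 in epicardial fat at 7 days and 6.78, 6.21, 6.43, 6.72 and 6.46 at 28 days. It rose by 1.06 ± 0.16 in epicardial (adjusted p = 2.3e-05), 1.05 ± 0.16 in omental (adjusted p = 8.0e-06) and 0.87 ± 0.16 in perirenal fat (adjusted p = 0.00015). In sternal fat it read 6.34, 5.52, 5.48, 5.70 and 5.59 at 7 days and 4.77, 4.83, 5.49, 5.49 and 5.49 at 28 days. There it fell by 0.51 ± 0.16 (adjusted p = 0.043), but the groups met at 5.48 and 5.49, and the call was lost without sternal replicates I or J at 28 days or B or D at 7 days (adjusted p up to 0.21) and after quantile normalization (-0.41, adjusted p = 0.16). SETD2, which makes H3K36 trimethylation in the wake of RNA polymerase, read 5.55, 5.31, 5.63, 5.53 and 5.50 in epicardial fat at 28 days, above the 4.85 to 4.97 of 7 days. It rose by 0.60 ± 0.09 in epicardial (adjusted p = 1.3e-05), 0.59 ± 0.09 in perirenal (adjusted p = 7.4e-06) and 0.46 ± 0.09 in omental fat (adjusted p = 0.00020), the last falling to 0.10 (adjusted p = 0.66) with quantile normalization. Its subcutaneous call (0.31 ± 0.09, adjusted p = 0.030) was lost without subcutaneous replicates H, I or N at 28 days or any of A, E, F and G at 7 days, after quantile normalization and without the CKM-high arrays, and in sternal fat it read 4.77 to 4.86 at 7 and 4.59 to 4.91 at 28 days. SETD7 rose in subcutaneous fat (0.51 ± 0.09, adjusted p = 0.00018), though neither after quantile normalization nor without the CKM-high arrays. SETD4, called in sternal fat (0.25 ± 0.07, adjusted p = 0.033), read 2.49, 2.91, 2.49, 3.24 and 2.56 there at 28 days, close to the low end, and its call was lost without any 1 of 7 sternal arrays, replicates J and N at 28 days and all 5 at 7 days (adjusted p up to 0.24).

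The demethylases rose in omental (6 of 13) and subcutaneous fat (5), with 1 in epicardial, 1 in sternal and none in perirenal fat. In the same order 13.5%, 7.68%, 4.21%, 2.47% and 6.23% of all probe sets rose. In omental fat the calls of KDM1A, KDM4A and KDM6B held after quantile normalization, and those of KDM2A, KDM3A and KDM7A did not. KDM6B (213146_at), which removes H3K27 trimethylation and has been tied to brown fat genes, had the widest change among the demethylases. In omental fat it read 2.97, 2.97, 3.18, 2.97 and 2.97 at 7 days and 4.81, 4.30, 5.16, 4.30 and 4.69 at 28 days, so that 4 of 5 arrays at 7 days shared 1 value near the low end and all 5 at 28 days lay above them. It rose by 1.64 ± 0.28 in omental (adjusted p = 5.0e-05), 1.69 ± 0.30 in subcutaneous (adjusted p = 0.00021) and 1.40 ± 0.28 in epicardial fat (adjusted p = 0.0011). In perirenal fat it was already at 4.53, 4.30, 4.44, 4.18 and 4.59 at 7 days, went to 4.84 to 5.49, and was not called. The sternal values, 3.16, 3.01, 4.05, 2.97 and 2.99 at 7 days and 3.62, 3.10, 4.30, 4.92 and 4.85 at 28 days, overlapped. The sternal difference of 0.92 ± 0.28 (adjusted p = 0.038) was lost without replicates M, N or O at 28 days or B, D, E or F at 7 days (adjusted p up to 0.16), and without the CKM-high arrays.

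KDM4A, a demethylase of H3K9 and H3K36, read 3.06, 2.56, 2.81 and 3.38 in subcutaneous fat at 7 days and 3.94, 3.59, 4.35, 4.21 and 4.19 at 28 days, without overlap. It rose by 1.10 ± 0.17 there (adjusted p = 3.6e-05) and by 0.86 ± 0.16 in omental fat (adjusted p = 0.00012). KDM2A, an H3K36 demethylase that binds CpG islands, rose by 1.08 ± 0.21 in subcutaneous fat (adjusted p = 0.00062) and by 0.66 in omental fat, a call lost without omental replicate O at 28 days or A at 7 days and after quantile normalization. KDM1A (LSD1), needed for brown and beige fat, rose by 0.84 ± 0.14 in omental (adjusted p = 2.2e-05) and 0.71 in subcutaneous fat, the latter lost after quantile normalization and without the CKM-high arrays. KDM3A, a demethylase of H3K9, rose by 0.46 ± 0.11 in omental fat only among the 5 tests (adjusted p = 0.0034), a call lost after quantile normalization. KDM6A, the X-linked relative of KDM6B, was not called with age in any depot.

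Of the 19 SMARC and ARID genes 9 rose in subcutaneous, 8 in omental, 6 in epicardial, 5 in perirenal and just 2 in sternal fat. The shares of all probe sets were 7.68%, 13.5%, 4.21%, 6.23% and 2.47%, in that order. SMARCA2 (217707_x_at), or BRM, one of the alternative ATPases of SWI/SNF, read 4.26, 3.60, 3.25, 4.24 and 3.15 in omental fat at 7 days and 5.55, 4.96, 5.35, 5.31 and 5.26 at 28 days. In subcutaneous fat it read 3.96, 3.18, 3.15 and 3.51, and then 5.02, 5.61, 5.10, 4.81 and 5.06. Neither depot showed overlap between ages. The rise was 1.67 ± 0.25 in subcutaneous (adjusted p = 2.5e-05), 1.59 ± 0.23 in omental (adjusted p = 4.9e-06), 1.53 ± 0.23 in perirenal (adjusted p = 1.1e-05) and 1.07 ± 0.23 in epicardial fat (adjusted p = 0.0026), and these 4 calls held under every alternative by which they could be tested. SMARCA4 (BRG1), the other ATPase, rose by 0.35 ± 0.09 in epicardial (adjusted p = 0.0070) and 0.32 in perirenal fat.

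SMARCA1 (203875_at) read 6.81, 6.73, 7.23 and 6.79 in subcutaneous fat at 7 days and 8.29, 8.62, 8.18, 8.23 and 8.34 at 28 days. In sternal fat it read 6.87, 6.42, 5.96, 6.61 and 6.34, and then 7.23, 7.82, 8.11, 7.99 and 7.02, again without overlap. It rose by 1.44 ± 0.23 in subcutaneous (adjusted p = 8.5e-05), 1.24 ± 0.22 in omental (adjusted p = 8.1e-05), 1.19 ± 0.22 in sternal (adjusted p = 0.00021), 1.07 ± 0.22 in perirenal (adjusted p = 0.00069) and 0.84 ± 0.22 in epicardial fat (adjusted p = 0.015), the last lost without epicardial replicates I at 28 days or D at 7 days. ARID1A read 8.22, 8.39, 8.30, 8.37 and 8.28 in perirenal fat at 7 days and 9.04, 9.42, 9.44, 9.49 and 9.57 at 28 days, a rise of 1.08 ± 0.15 (adjusted p = 1.1e-06). Its rises were 0.72 ± 0.15 in epicardial (adjusted p = 0.0010), 0.69 ± 0.15 in omental (adjusted p = 0.00069), 0.57 ± 0.15 in sternal (adjusted p = 0.0096) and 0.51 ± 0.15 in subcutaneous fat (adjusted p = 0.027), the subcutaneous call lost without replicates H, M or N at 28 days or G at 7 days (adjusted p up to 0.14), after quantile normalization and without the CKM-high arrays. ARID4B, which belongs to the SIN3 deacetylase complex, not to SWI/SNF, rose by 0.79 in perirenal, 0.71 in omental, 0.69 in epicardial and 0.68 in subcutaneous fat, and its omental and subcutaneous calls were lost after quantile normalization.

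Among deacetylases, 3 of 14 rose in omental, 3 in subcutaneous, and 1 each in the epicardial, perirenal and sternal depots. The shares of all probe sets were 13.5%, 7.68%, 4.21%, 6.23% and 2.47%, in that order. HDAC8, a class I enzyme, read 3.88, 3.26, 3.26, 4.08 and 3.88 in omental fat at 7 days and 4.68, 4.52, 5.03, 4.84 and 4.34 at 28 days, without overlap, and rose by 1.01 ± 0.15 there (adjusted p = 8.0e-06) and by 0.82 ± 0.16 in subcutaneous fat (adjusted p = 0.00085). HDAC6, the cytoplasmic enzyme that acts on tubulin, rose by 1.05 ± 0.21 in subcutaneous (adjusted p = 0.0011), 0.86 in omental and 0.73 ± 0.20 in epicardial fat (adjusted p = 0.021), the last lost without epicardial replicates I at 28 days or D or E at 7 days. The subcutaneous HDAC6 call was also lost without the CKM-high arrays, and the other calls after quantile normalization. HDAC5 (202455_at), a class II enzyme that shuttles between nucleus and cytoplasm, was the deacetylase that rose in sternal fat. There it read 3.70, 3.89, 3.94, 4.45 and 4.17 at 7 days and 5.33, 5.07, 4.94, 4.94 and 4.94 at 28 days, a rise of 1.01 ± 0.13 (adjusted p = 7.2e-07) to the value that 17 arrays of the series share. In perirenal fat its call (0.45 ± 0.13, adjusted p = 0.025) was lost without replicates I or K at 28 days or D at 7 days and after quantile normalization. SIRT1 read 2.49, 2.49, 3.0 and 3.27 in subcutaneous fat at 7 days and 2.49 to 2.50 at 28 days, so that its fall of -0.32 ± 0.09 (adjusted p = 0.019) rested on 2 arrays, E and G, and was lost without either (adjusted p up to 0.21). HDAC1, SIRT3 and SIRT5 were not called in any comparison.

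Of the 7 acetyltransferases 4 rose in perirenal, 2 in omental, 2 in subcutaneous, 1 in epicardial and 0 in sternal fat, and the difference between these counts was not tested. The shares of all probe sets were 6.23%, 13.5%, 7.68%, 4.21% and 2.47%, in that order. KAT2B (PCAF) read 3.86, 3.89, 3.86, 4.06 and 3.87 in perirenal fat at 7 days and 5.00, 4.21, 5.07, 4.59 and 4.23 at 28 days, a rise of 0.71 ± 0.16 (adjusted p = 0.0015). KAT6B rose by 0.73 ± 0.16 in subcutaneous (adjusted p = 0.0023), 0.58 in perirenal and 0.47 in omental fat. The first of these calls was lost without the CKM-high arrays and the others after quantile normalization. EP300 (p300) rose in subcutaneous fat (0.46 ± 0.12, adjusted p = 0.0074), a call lost without replicate F at 7 days (adjusted p = 0.065), and its partner CREBBP in epicardial fat (0.46 ± 0.13, adjusted p = 0.027), a call lost without epicardial replicates L or O at 28 days or C or D at 7 days (adjusted p up to 0.10), and both calls were lost after quantile normalization. DNMT3A (218457_s_at), a de novo DNA methyltransferase, read 4.90, 5.26, 5.68, 5.75 and 5.33 in perirenal fat at 7 days and 6.43, 6.14, 6.51, 6.09 and 6.70 at 28 days, a rise of 0.99 ± 0.20 (adjusted p = 0.00064) without overlap. TET2, which oxidises 5-methylcytosine, rose by 0.38 ± 0.10 in omental (adjusted p = 0.0048) and 0.37 ± 0.10 in epicardial fat (adjusted p = 0.014), the latter lost without epicardial replicates I or N at 28 days or E at 7 days and both after quantile normalization.

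In the CHD group 4 of 10 rose in epicardial, 4 in omental, 1 in perirenal and 1 in subcutaneous fat. The shares of all probe sets were 4.21%, 13.5%, 6.23% and 7.68%, in that order. CHD3, an ATPase of the NuRD complex, rose by 0.93 ± 0.17 in omental (adjusted p = 0.00011) and 0.62 in epicardial fat. CHD7, mutated in CHARGE syndrome, rose by 0.75 ± 0.18 in perirenal fat (adjusted p = 0.0035), 0.65 in epicardial fat (adjusted p = 0.020, lost without epicardial replicate N) and 0.56 in omental fat. The epicardial call of CHD3 and the epicardial and omental calls of CHD7 were lost after quantile normalization. Of the 8 bromodomain (BRD) genes, 1 rose in any depot, BRD8 by 0.21 ± 0.06 in perirenal fat (adjusted p = 0.013), a call lost without replicate N.

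**Figure D4:**
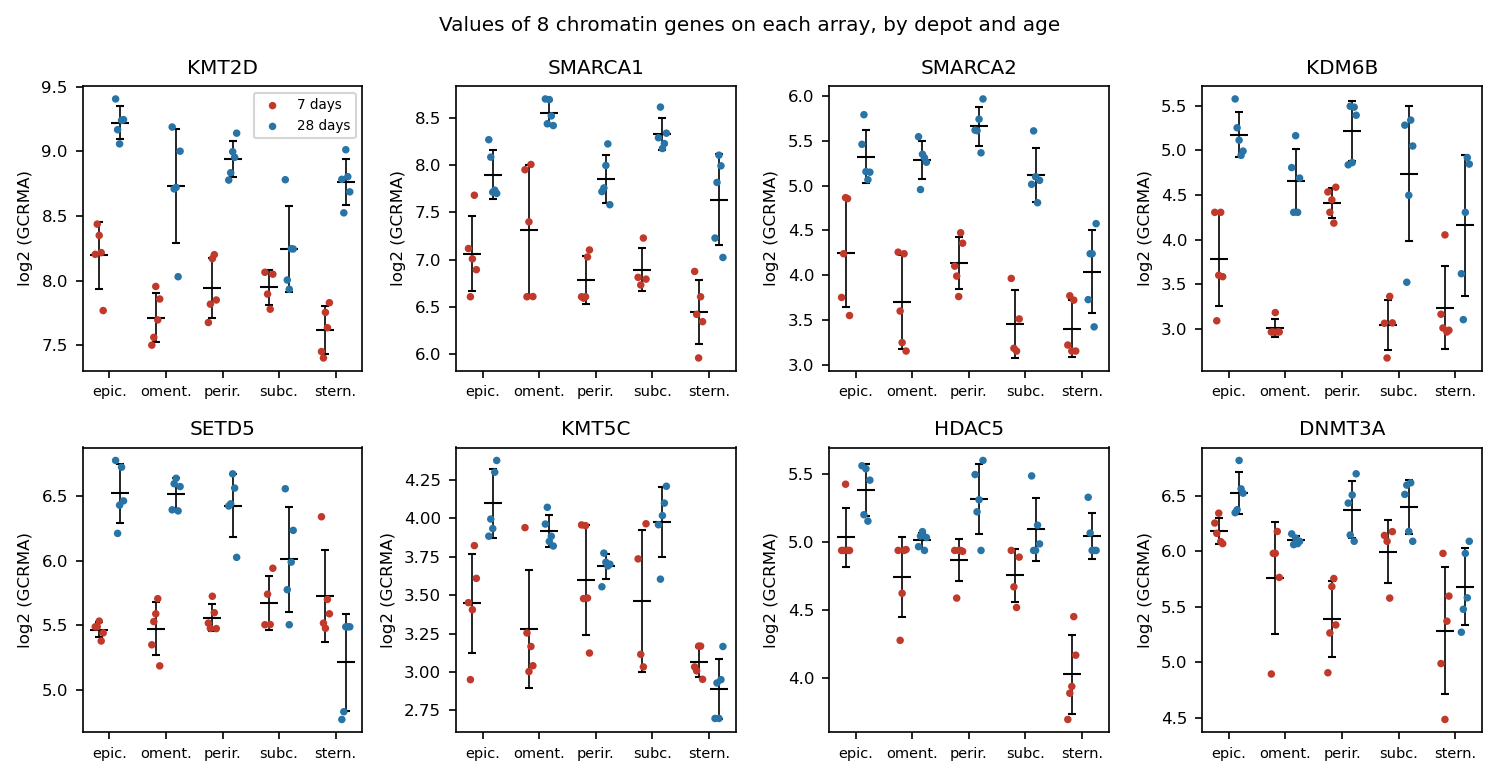
Deposited log2 signal of KMT2D, SMARCA1, SMARCA2, KDM6B, SETD5, KMT5C, HDAC5 and DNMT3A on every array, by depot and age (points), with the group mean and SD (bars). KMT2D and SMARCA1 rise with age also in sternal fat, whereas SETD5 and KMT5C are lowest there at 28 days.

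At 28 days the depots differed in 39 members by the F test over 5 depots (20.0% of all probe sets), 18 after quantile normalization and 19 without the CKM-high arrays, and sternal fat stood lowest for most of them. Of all 10273 probe sets, 1310 were called after quantile normalization and 1165 without the CKM-high arrays. In sternal fat 42 members were lower than in the mean of the other 4 depots and 1, SETD4, was higher, beside 18.4% of all probe sets called lower. The sternal difference was negative for 39 of the 40 members with a mean of at least 4, and 30 of these 40 were called lower, beside 51.7% of all such probe sets. The median difference over them was -0.46, and -0.33 over all such probe sets. By family the members called lower were 8 of 19 SMARC and ARID, 7 of 10 CHD, 7 of 13 KDM, 6 of 17 KMT and SETD, 6 of 14 HDAC and SIRT, 5 of 7 acetyltransferases, 2 of 3 DNMT and TET, and 1 of 8 BRD genes. Every sternal array lay below every other array of that age for 8 members (2.14% of all probe sets): SMARCA2, SETD5, KDM2A, KMT5C, KDM4A, SETD2, HDAC8 and CHD5.

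Most of these calls did not hold when arrays were brought to a common distribution. After quantile normalization 7 members were lower and 5 higher in sternal fat, and over all probe sets the calls went from 1891 lower and 170 higher to 354 lower and 601 higher, with a shift of the median of all probe sets by 0.07. Of the 40 members with a mean of at least 4, 3 were called lower and 1 higher after this scaling. The 7 that were lower under both scalings were SMARCA2, SETD5, KDM2A, KMT5C, HDAC6, KDM4A and CHD3, and they also held in every fit without 1 array and without the arrays high in CKM. The 5 higher after scaling were BRD3, HDAC7, SETD1B, SETD7 and SETD4. Without the CKM-high arrays, which leaves sternal replicates I and M, 17 members were lower and 1 higher, and 1008 of all probe sets were called in either direction. On the sternal arrays of 28 days the mean of 17 skeletal muscle genes ran from 2.71 to 7.25 (6 of 17 called higher than in other depots), and the mean of 12 fibroblast and matrix genes from 5.77 to 6.53 (3 of 12). The mean of 7 endothelial genes was 2.67 to 3.09 over all groups, with none of the 7 averaging 4. Apart from the fits without CKM-high arrays, the part of these cells in the members' values was not tested.

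KMT5C (224431_s_at), the other H4K20 methyltransferase, read 2.7, 2.93, 2.7, 2.95 and 3.17 in sternal fat at 28 days, and 3.55 to 4.38 on the other 20 arrays. The difference was -1.03 ± 0.09 (adjusted p = 5.7e-08) and -0.81 with quantile normalization. In sternal fat at 7 days it read 2.95 to 3.17. KDM2A read 3.69, 3.0, 2.96, 3.61 and 3.47 against 3.86 to 5.17 (-1.15 ± 0.12, adjusted p = 1.3e-06), and KDM4A 3.19, 3.16, 3.16, 3.19 and 3.47 against 3.54 to 4.35 (-0.73 ± 0.09, adjusted p = 1.3e-05). All of these sternal values were below 4, near the low end. SMARCA2 read 3.73, 4.24, 4.24, 3.42 and 4.58 against 4.81 to 5.97 (-1.31 ± 0.15, adjusted p = 3.1e-06). SETD5, at 4.77 to 5.49 against 5.50 and above, differed by -1.16 ± 0.14 (adjusted p = 6.3e-06) and by -0.76 with quantile normalization. HDAC6 read 3.27, 3.67, 3.26, 2.94 and 3.53 against 3.66 to 4.78, with a slight overlap (-0.92 ± 0.13, adjusted p = 5.3e-05), and CHD3 differed by -0.65 ± 0.12 (adjusted p = 0.00058).

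Other sternal calls at 28 days depended on the scaling. DNMT3A went from -0.67 ± 0.11 (adjusted p = 0.00027) to -0.30 (adjusted p = 0.11), SETD2 from -0.60 ± 0.09 (adjusted p = 9.5e-05) to -0.15 (adjusted p = 0.34), and HDAC8, at 4.04, 3.88, 3.98, 3.83 and 3.90 on the sternal arrays, from -0.57 ± 0.11 (adjusted p = 0.00059) to -0.20 (adjusted p = 0.21). EP300 read 4.37, 4.38, 4.45, 4.52 and 4.54 in sternal fat, differed by -0.32 ± 0.07 (adjusted p = 0.0037) and turned to 0.11 with quantile normalization. KDM6A (-0.96 ± 0.30, adjusted p = 0.028) and KDM6B (-0.79 ± 0.26, adjusted p = 0.036) were each lost without sternal replicates I, J or M. SMARCA1 (-0.53 ± 0.14, adjusted p = 0.0089) was lost without replicate O and ARID1A (-0.47 ± 0.13, adjusted p = 0.013) without J. SETD4, the member called higher (0.22 ± 0.08, adjusted p = 0.040), was lost without sternal replicates J or N, epicardial J, or omental J, N or O.

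**Figure D5:**
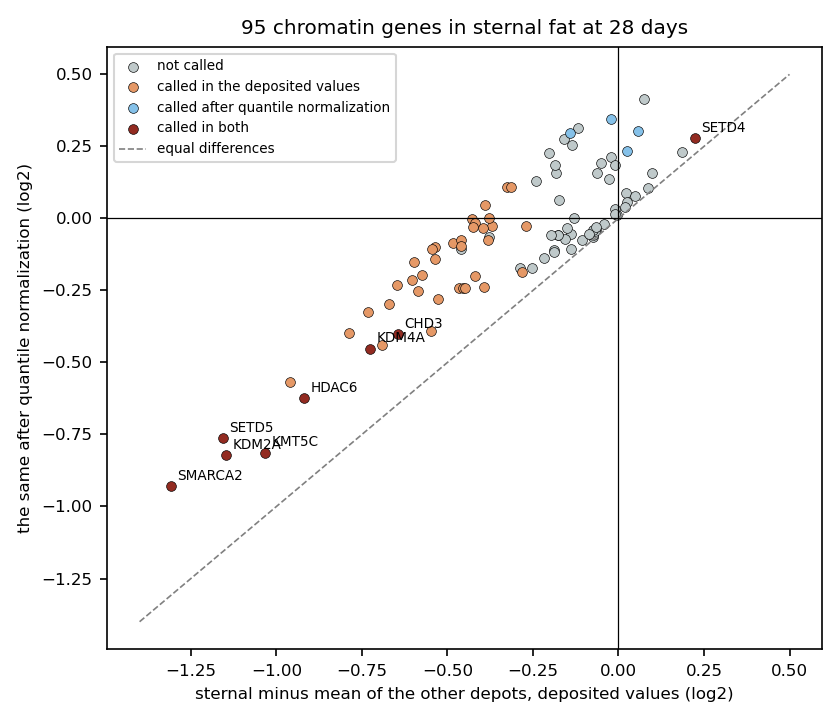
Difference of sternal fat from the mean of the other depots at 28 days for each of the 95 members, with deposited values (x axis) and quantile-normalized values (y axis), both in log2. The 7 members called lower under both, from SMARCA2 (-1.31 and -0.93) to CHD3 (-0.65 and -0.40), lie at the lower left.

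The other depots at 28 days held few members apart. Perirenal fat had 9 higher (2.87% of all probe sets), among them CHD7, at 5.93, 5.29, 5.82, 6.01 and 6.11 (0.71 ± 0.13, adjusted p = 0.0024), SMARCA2 (0.72 ± 0.15, adjusted p = 0.0074) and KDM2A (0.63 ± 0.12, adjusted p = 0.0037). KMT2A (0.64 ± 0.14, adjusted p = 0.011) was lost without perirenal replicate K, KAT2B (0.61 ± 0.15, adjusted p = 0.027) without I, M or N, and EP300 (0.27 ± 0.07, adjusted p = 0.044) without any of 14 arrays. The count was 4 without replicate K or M, 5 without N, and 3 without the CKM-high arrays, where CHD7 and KDM2A were still called. Epicardial fat had 6 higher (2.74%): CHD7 (0.60 ± 0.13, adjusted p = 0.010), HDAC9 (0.56 ± 0.15, adjusted p = 0.048), KMT2D (0.55 ± 0.13, adjusted p = 0.017), KMT5C (0.48 ± 0.09, adjusted p = 0.0019), CHD6 (0.46 ± 0.10, adjusted p = 0.011) and CHD8 (0.27). Without replicate J 3 of them were called, KMT2D was lost without I or O, HDAC9 without any of 19 arrays, and KMT5C alone remained after quantile normalization.

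Omental fat at 28 days had 2 higher (4.76%), SMARCA1, at 8.70, 8.44, 8.70, 8.52 and 8.42 (0.63 ± 0.14, adjusted p = 0.0081), and HDAC8 (0.37 ± 0.11, adjusted p = 0.042). HDAC8 was lost without any of 16 arrays, and the count of members was 1 without epicardial replicates L, N or O, omental N, perirenal J, K or M, sternal J or subcutaneous N. Quantile normalization gave 1 higher and 2 lower. In subcutaneous fat KMT2D (-0.67 ± 0.13, adjusted p = 0.0052) and CHD7, at 5.16, 5.02, 4.16, 4.70 and 4.90 (-0.60 ± 0.13, adjusted p = 0.011), were lower (0.458%) and KMT5C was higher (0.33 ± 0.09, adjusted p = 0.036). CHD7 was lost without subcutaneous replicate J (adjusted p = 0.058), and KMT5C without subcutaneous H, J, M or N or omental M or O. The count was 1 without J and 5 without I. Quantile normalization left 2 lower and 0 higher, and none was called without the CKM-high arrays.

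At 7 days the depots differed in 13 members (8.16% of all probe sets by the same F test), 7 without epicardial replicate G and 8 without perirenal replicate A. UCP1, the uncoupling protein of brown fat, read 5.51 to 8.22 in perirenal, 3.52 to 5.51 in sternal, 3.34 to 5.32 in epicardial, 2.91 to 5.13 in omental and 2.49 to 2.99 in subcutaneous fat at 7 days, and at most 3.0 on any array of 28 days. Perirenal fat at 7 days had 6 members higher (4.58%) and 1 lower, and of 525 probe sets called there in all, 470 were higher. KDM6B (1.14 ± 0.17, adjusted p = 0.00039) held under every alternative by which it could be tested, as did SMARCC2, at 3.80, 3.60, 3.64, 3.82 and 3.80 (0.33 ± 0.05, adjusted p = 0.00040). Both averaged below 4 at 7 days, so the fit of genes averaging at least 4 did not test them. KDM2A (0.80 ± 0.18, adjusted p = 0.011), HDAC6 (0.76 ± 0.18, adjusted p = 0.016) and KMT2E, which was lower (-0.68 ± 0.16, adjusted p = 0.014), were each lost without perirenal replicate A, without which 3 members were called. HDAC3, the deacetylase of the NCoR complex that is needed for thermogenesis, was called higher there (0.32 ± 0.07, adjusted p = 0.0077) and in the F test of the same age (adjusted p = 0.035), but not after quantile normalization. After quantile normalization 2 members were higher and 2 lower in perirenal fat.

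Epicardial fat at 7 days had 6 members higher (3.35%): HDAC9 (0.81 ± 0.17, adjusted p = 0.0055), HDAC5 (0.44 ± 0.12, adjusted p = 0.032), KMT2D (0.39 ± 0.10, adjusted p = 0.028), CHD6 (0.38), SMARCB1 (0.38) and BRD1 (0.09 ± 0.03, adjusted p = 0.040). HDAC9, a class II deacetylase expressed in muscle and heart, read 4.23, 4.23, 5.34, 5.50 and 4.80 there, and 4.33, 5.31, 4.23, 4.75 and 5.39 at 28 days. The mean of the cardiac muscle genes ran from 6.95 to 9.42 on the epicardial arrays at 7 days and from 2.68 to 9.09 at 28 days, and CKM read 2.76 on replicate I and 6.82 to 10.5 on the others at 28 days. The part of heart muscle in the HDAC9 values was not tested. HDAC5 was lost without epicardial replicates A, C or G, KMT2D without A, C, D or G, BRD1 without any of 8 arrays, and the count was 1 without A, 2 without D and 3 without G. Quantile normalization left 1 higher and 1 lower.

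Sternal fat at 7 days had 2 members lower (0.925%), HDAC5, on arrays at 3.70 to 4.45 against 4.28 to 5.43 in the other depots (-0.82 ± 0.12, adjusted p = 0.00067), and BRD9 (-0.22 ± 0.05, adjusted p = 0.020), which was lost without sternal replicates E, F or G and left 1. Quantile normalization gave 1 higher and 2 lower. In subcutaneous fat SMARCB1, a core subunit of SWI/SNF, was lower (-0.47 ± 0.11, adjusted p = 0.024; 0.701%). It was lost without replicates F or G, the count being 0 without G and 2 without subcutaneous A or E, epicardial D, omental A or perirenal A. In omental fat limma called 0 of 95, beside 158 of all 10273 probe sets. After quantile normalization it called 1, beside 167 of all probe sets. It also called 1 without epicardial D, sternal G or subcutaneous A.

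Whether the change with age itself differed between depots was tested on all 49 arrays. By the F test of depot by age 18 members differed (9.17% of all probe sets), 4 after quantile normalization and 11 without the CKM-high arrays, and the sternal change differed from the mean of the other 4 changes for 18, lower for 17 (4.98%) and higher for HDAC5. After quantile normalization 539 of all 10273 probe sets were called by the F test and 295 for the sternal difference. SETD5 had the largest sternal difference among the members (-1.34 ± 0.18, adjusted p = 4.8e-06) and held under every alternative. HDAC6 (-0.99 ± 0.23, adjusted p = 0.0051), KMT2A (-0.78 ± 0.19, adjusted p = 0.0073) and HDAC5 (0.66 ± 0.15, adjusted p = 0.0050) were also called after quantile normalization, with which 3 members were lower and 1 higher, but HDAC6, KMT2A and HDAC5 were not called without the CKM-high arrays. SETD2 differed by -0.55 ± 0.10 (adjusted p = 0.00049), and KDM2A (-0.71, adjusted p = 0.046) and KDM4A (-0.58, adjusted p = 0.044) were lost without any of 24 arrays each. The sternal count was 10 without sternal replicate B at 7 days and 5, all lower, without the CKM-high arrays. KMT2D and SMARCA1, which rose in sternal fat by 1.15 and 1.19, were not among those whose sternal change differed, and KMT2D was called by the F test of depot by age (adjusted p = 0.038). In sternal fat the mean of the fibroblast and matrix genes rose from 5.09 to 5.49 at 7 days to 5.77 to 6.53 at 28 days, with 8 of 12 called higher, and its part in these differences was not tested.

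Other chromatin genes, 150 probe sets of polycomb, heterochromatin, corepressor, chaperone and remodelling proteins, ran beside the members, and those named here were chosen after their values were seen. With age 35 rose and 4 fell in omental (13.5% of all probe sets rose), 30 and 0 in subcutaneous (7.68%), 29 and 3 in perirenal (6.23%), 25 and 2 in epicardial (4.21%), and 3 and 6 in sternal fat, where these counts were close to the shares of all probe sets (2.47% and 3.89%). BPTF, the histone reader of the NURF complex whose ATPase is SMARCA1, rose by 1.18 ± 0.13 in subcutaneous, 1.06 ± 0.12 in perirenal, 1.01 ± 0.12 in epicardial (adjusted p = 2.6e-07) and 0.52 in omental fat, and its sternal change differed by -0.89 ± 0.13 (adjusted p = 3.8e-05). RSF1, another partner of ISWI ATPases, rose by 1.70 ± 0.28 in subcutaneous and 1.32 ± 0.26 in perirenal fat. SS18, a SWI/SNF subunit, fell by 1.22 ± 0.26 in sternal fat (adjusted p = 0.0011), and MTF2, a polycomb protein, fell by 1.06 ± 0.18 in omental fat. In sternal fat at 28 days 63 of the 150 were lower (18.4% of all probe sets, and 51.7% of those averaging at least 4) and 2 higher, and after quantile normalization 18 lower and 8 higher. Among them, in the deposited values, ATXN7L1, a relative of a subunit of the SAGA acetyltransferase complex, differed by -1.65 ± 0.12 (adjusted p = 1.0e-08). EPC1 of the NuA4 complex differed by -1.11 ± 0.11 (adjusted p = 9.1e-07) and SRCAP by -1.14 ± 0.14. Whether calls of these other chromatin genes held without 1 array or without the CKM-high arrays was not examined.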

How the data were processed

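The authors made the deposited log2 values with GCRMA from the affy package (versions not given in the sources used here), which corrects background, normalizes arrays and summarises probe sets, and they filtered the probe sets. In the deposited table, of 10273 probe sets, 9780 had 1 gene symbol in the platform annotation, 6 several and 487 none. Symbols of 94 of the 95 members occur in the sheep RefSeq gene table. The closest pair of arrays correlated at 0.990 and no arrays were merged. Arrays give no read depth, and their number limits the precision.

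limma 3.58.1 in R 4.3.3 was run on all probe sets, in 1 fit per age over 5 depots (F test, and every depot against the averaged others) and 1 fit of 49 arrays in 10 groups (28 against 7 days per depot, their differences, and the F test of the interaction). P-values were adjusted by Benjamini-Hochberg over all probe sets within a comparison, and called at 0.05. The code was tested on simulated data.

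The members and gene lists were chosen with earlier results of these data known. Genes named were EP300, CREBBP and members known from brown fat, up to 12 called members per direction and comparison, and up to 6 without overlap. Alternatives were quantile normalization, a mean of at least 4, replicate blocks, a trended robust prior and leaving out each array. Another left out CKM-high arrays of sternal and subcutaneous fat only. It kept the epicardial arrays high in CKM, and bears on changes with age in other depots only through the shared spread. No sequences or coordinates were used here. A description label gives another age range than the age labels, which were followed.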

Additional observations from a re-analysis of the deposited data

Results flagged for a closer look

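In all, 66 groups of values were examined, those of named members and the array means of members averaging at least 4. In 8 of them 1 array stood apart from the rest by Dixon's criterion. Chance meets it in about 1 of 20 groups of normally spread values. Many values here share plateaus, as KDM6B did at 2.97 in omental fat at 7 days, so that rate may not apply. SETD5 read 6.34 on sternal replicate D at 7 days (others 5.48 to 5.70), SETD2 4.77 on sternal E at 7 days (4.85 to 4.86), KDM6B 3.18 on omental G at 7 days (2.97) and 4.05 on sternal G at 7 days (2.97 to 3.16). KDM4A read 3.47 on sternal O at 28 days (3.16 to 3.19), SMARCA1 7.23 on subcutaneous G at 7 days (6.73 to 6.81), ARID1A 9.04 on perirenal I at 28 days (9.42 to 9.57) and KAT2B 4.06 on perirenal B at 7 days (3.86 to 3.89).

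The change with age in sternal fat differed from that in the other depots, by the test of the difference, for 18 members. The differences were -1.34 for SETD5, -0.99 for HDAC6, -0.78 for KMT2A, -0.71 for KDM2A, -0.68 for SMARCC1, -0.67 for CHD7, 0.66 for HDAC5, -0.65 for KMT5C, -0.65 for CHD1L, -0.58 for KDM4A, -0.58 for CHD6, -0.57 for KMT2B, -0.56 for ARID4B, -0.56 for KDM7A, -0.55 for SETD2, -0.47 for HDAC10, -0.46 for EP300 and -0.46 for KDM3A. By the F test of depot by age, 12 of these were called as well, and 6 others were called by it alone: KMT5B (adjusted p = 0.0039), HDAC8 (0.0077), SIRT2 (0.033), SMARCC2 (0.035), KMT2D (0.038) and KDM1A (0.042).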

How the results depend on the processing

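Counts of members called moved by more than 1.5 times mainly with quantile normalization. With it the calls were 13 for epicardial, 12 for omental and 10 for subcutaneous fat with age, 4 for the difference of the sternal change, 4 for the interaction, 18 for the F test at 28 days, and, against the other depots, 12 for sternal and 1 for epicardial fat at 28 days and 2 for epicardial, 4 for perirenal, 1 for omental and 2 for subcutaneous fat at 7 days. Without the CKM-high arrays they were 11 for subcutaneous fat with age, 5 for the sternal difference, 11 for the interaction, 19 for the F test at 28 days, 18 for sternal, 3 for perirenal and 0 for subcutaneous fat at 28 days, and 1 for omental and 4 for subcutaneous fat at 7 days. Testing only genes averaging at least 4 gave 4 for omental and 5 for subcutaneous fat at 28 days and 3 for perirenal and 2 for subcutaneous fat at 7 days, and a trended robust prior 1 for omental fat at 28 days. Differences that turned sign were, with quantile normalization, CHD4 (0.047), EP300 (0.11), KDM1A (0.11) and KMT5B (0.0027) in sternal fat at 28 days and SETD1B (-0.16) with age in omental fat, and, without the CKM-high arrays, SETD4 (-0.024) in sternal fat at 28 days and SIRT1 (0.0027) with age in subcutaneous fat. The cause was not tested.

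Of 199 calls of a direction, 84 remained with quantile normalization, 107 in every fit without 1 array, and 69 in both. The fit without the CKM-high arrays left out no array of the epicardial, omental or perirenal changes with age. It also left replicate F alone among the subcutaneous arrays at 7 days, so its calls are not added up over the comparisons.

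Without 1 array the counts ran from 10 to 20 for the sternal difference, 13 to 21 for the interaction, 28 to 43 and 7 to 15 for the F tests at 28 and 7 days, 3 to 8 and 1 to 7 for epicardial, 1 to 3 and 0 to 1 for omental, 4 to 9 and 3 to 8 for perirenal, 32 to 43 and 1 to 2 for sternal, and 1 to 5 and 0 to 2 for subcutaneous fat, at 28 and 7 days in turn, and with age from 14 to 23, 25 to 33, 18 to 21, 5 to 8 and 19 to 25 in epicardial, omental, perirenal, sternal and subcutaneous fat.

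The labels do not say what the replicate numbers stand for, and the main fits did not pair arrays by them. Correlations between arrays cannot settle whether the numbers name animals, since noise alone makes some same-number pairs disagree. Deviations from the group means correlated between -0.26 and 0.16 over 33 same-number pairs at 7 days and between -0.08 and 0.32 over 39 at 28 days. They were over 0.1 in 6 of 33 and 12 of 39 same-number pairs (medians 0.046 and 0.057) and in 15 of 197 and 12 of 211 others (medians -0.011 and -0.0090). This is a hint from the data, not the design, that same-number arrays are related. The main fits take arrays of different depots as independent, though by the study's methods the depots shared animals. With a fixed replicate block, which leaves the changes with age without an estimate, 5 members were called for perirenal fat at 28 days, 1 for omental and 0 for subcutaneous fat at 7 days, 38 for sternal fat at 28 days and 19 for the sternal difference. Of the calls of a direction that the fixed block could test, 73 remained, 24 were lost and 0 turned sign. With a random replicate block 4 were called for omental fat at 28 days, and no call of the deposited values was lost.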
